A study of Mus musculus with 8 samples.

Results

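Haematopoietic stem cells (HSCs) express 2 families of membrane proteins that work early in the secretory pathway, the TMED family, also called p24 proteins, and the TM9SF family, also called nonaspanins. The genes described here are 7 TMED genes (Tmed2, Tmed3, Tmed4, Tmed5, Tmed7, Tmed9 and Tmed10) and 3 TM9SF genes (Tm9sf2, Tm9sf3 and Tm9sf4), found by symbol among the 11854 named entries of the deposited table. All 10 were in the table, and all 10 passed the filter on low values, which asked for 10 or more normalised reads in 4 or more libraries. The genes were chosen by family and with their values in this comparison of genotypes already known, the difference of Tmed5 and Tm9sf3 above all, so that difference is given as a description, with no p-value for the 10 genes.

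TMED proteins cross the membrane once and carry a GOLD domain in the lumen of the endoplasmic reticulum (ER) and Golgi. They cycle between these compartments in COPII-coated vesicles, which leave the ER, and COPI-coated vesicles, which return from the Golgi, and they help load cargo such as GPI-anchored surface proteins. Members of the alpha, beta, gamma and delta subfamilies assemble with each other, and in cells studied so far loss of one often lowers the protein level of others. TM9SF proteins have a large luminal domain and many membrane spans and reside in the Golgi and endosomes. In the bone marrow, GPI-anchored proteins such as Ly6a (Sca-1) and Procr (EPCR) are among the surface markers by which HSCs are recognised.

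The study compared HSCs sorted from bone marrow nucleated cells of 4 Nupr1-/- mice with HSCs of 4 wild type mice, all on a C57BL/6 background, with 1 polyadenylated RNA library per mouse. Nupr1 encodes a small stress-induced chromatin protein, and the age of the mice, the deleted part of the gene and the surface markers of the sort are not given in the sources used here. Library numbers 1 to 4 are those of the labels. Values are reads per gene divided by 1 size factor per library, called normalised reads below, and the log2 difference is the mean of log2(value + 1) in Nupr1-/- libraries minus that in wild type libraries; the added 1 shrinks the ratio of any pair of low values.

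The libraries held 2296101 to 3959564 gene reads in Nupr1-/- and 3340217 to 4769401 in wild type. Nupr1 itself (chromosome 7, 126623249 to 126630861, minus strand, mm10) had 179.4, 173.3, 200.6 and 118.5 normalised reads in libraries 1 to 4 labelled Nupr1-/-, against 285.5, 134.0, 245.3 and 318.2 in wild type libraries 1 to 4. The groups overlapped and the difference did not pass the test (log2 difference -0.50 ± 0.34 SE, limma adjusted p = 0.433), so the targeted gene does not check the labels, and every difference below is between libraries as labelled. Xist, the RNA of the inactive X chromosome of female cells, had 107.2 to 159.3 normalised reads in the Nupr1-/- libraries, against 11.8 in wild type library 2 and 0 in the other wild type libraries, and all Nupr1-/- libraries lay above all wild type libraries; its reads cannot be told from those of its antisense partner Tsix in unstranded libraries. Kdm5d, a Y-linked gene, averaged 16.4 ± 6.47 in Nupr1-/- and 39.1 ± 20.5 in wild type (SD, n = 4 each), with overlapping groups. The labels give no sex, and its part in the differences below was not tested. Wild type library 2 stood apart on the first principal component, at -126.5 against 0.8 to 36.9 for the other libraries. The 15 HSC marker genes that had been listed were all read in every library, and their summed level was 10128 to 12880.0 in Nupr1-/- and 10922 to 14792 in wild type. One of the 15, Mllt3, a regulator of HSC maintenance, was called lower in Nupr1-/- (838 ± 159 in Nupr1-/- and 1399 ± 239 in wild type, SD, n = 4 each; log2 difference -0.74 ± 0.20 SE, limma adjusted p = 0.044). None was called higher, beside 2.12% lower and 1.68% higher among all genes tested. The call of Mllt3 under other ways of processing is not given here. Marker means went both ways. Mecom had 401.7 in Nupr1-/- and 709.4 in wild type, and Gata2 had 1896.1 in Nupr1-/- and 1489.9 in wild type.

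Of the 10 genes, 3 were past the threshold (limma, Benjamini-Hochberg adjusted p under 0.05 over 10989 genes tested), all of them lower in Nupr1-/-: Tmed5, Tm9sf3 and Tmed2. Among all genes tested 3.80% were past the threshold, 2.12% lower and 1.68% higher in Nupr1-/-. The same 3 were the genes whose 4 Nupr1-/- values all lay below all 4 wild type values, a pattern that 5.91% of all genes tested showed, while 5.78% had all Nupr1-/- values above all wild type values. The other 7 genes had overlapping groups. The median log2 difference of the 10 was -0.20, beside 0.03 over all genes tested. Because this contrast chose the genes, nothing is read from these counts. In bulk RNA, fewer cells of a type and less RNA per cell cannot be told apart.

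**Figure D1:**
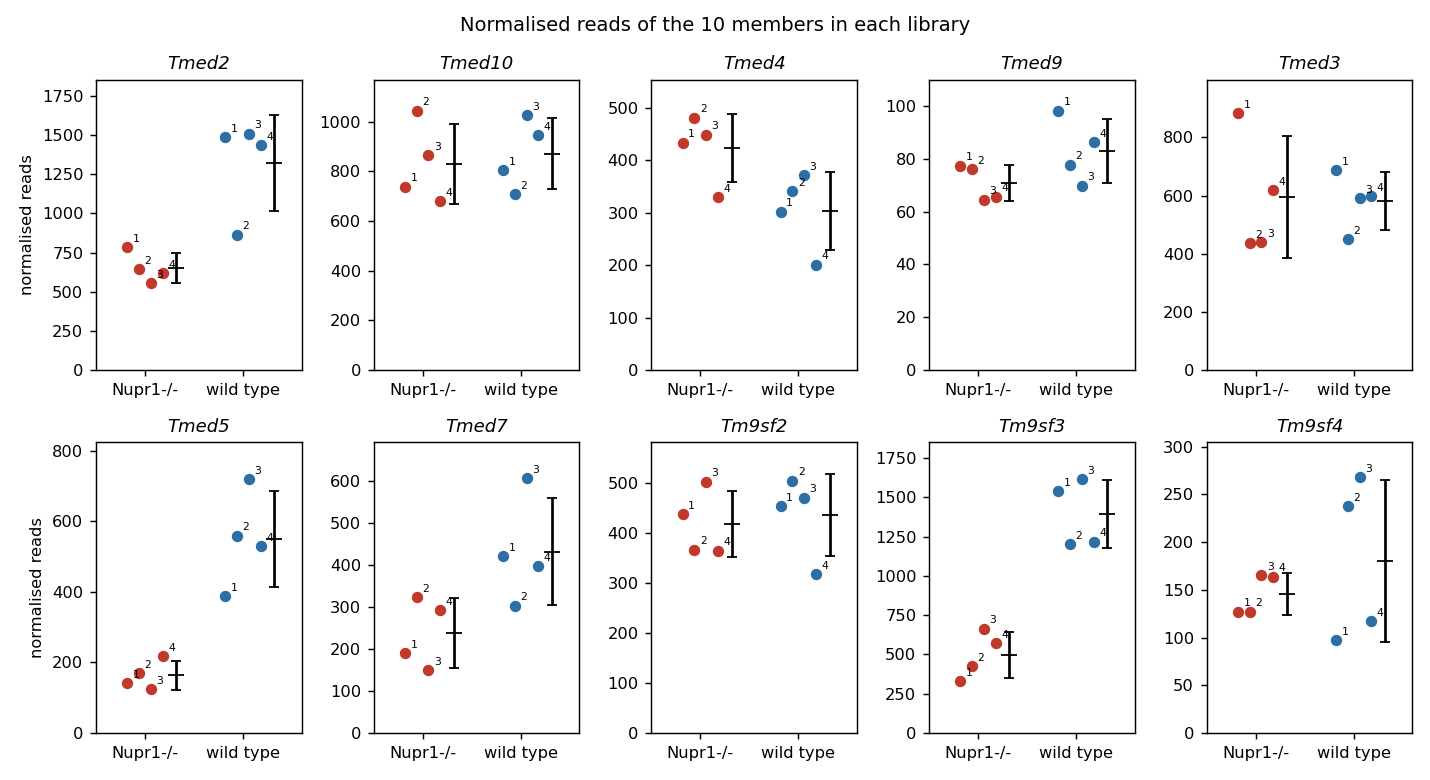
Normalised reads (y axis, each panel from 0) of the 10 genes in each library, Nupr1-/- on the left and wild type on the right; the digits are library numbers and the bar is the mean with SD (n = 4). Tmed2, Tmed5 and Tm9sf3 are the panels in which the groups do not overlap.

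The 300-base promoter windows of the 2 genes with the largest differences are shown because Tmed5 and Tm9sf3 carry the main description. They run from 250 bases before to 50 bases after the annotated start (RefSeq, GRCm38.p6), 5′ to 3′ on the gene's strand, with motif matches in capitals. The Tmed5 window is chr5:108132571-108132870, minus strand, and the Tm9sf3 window is chr19:41263955-41264254, minus strand.
Tmed5: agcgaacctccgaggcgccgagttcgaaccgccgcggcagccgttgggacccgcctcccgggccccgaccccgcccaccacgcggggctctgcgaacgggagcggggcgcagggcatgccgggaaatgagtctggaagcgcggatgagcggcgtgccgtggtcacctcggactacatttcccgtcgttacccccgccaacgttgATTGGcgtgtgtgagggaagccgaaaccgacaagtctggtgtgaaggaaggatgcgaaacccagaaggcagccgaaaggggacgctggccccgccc
Tm9sf3: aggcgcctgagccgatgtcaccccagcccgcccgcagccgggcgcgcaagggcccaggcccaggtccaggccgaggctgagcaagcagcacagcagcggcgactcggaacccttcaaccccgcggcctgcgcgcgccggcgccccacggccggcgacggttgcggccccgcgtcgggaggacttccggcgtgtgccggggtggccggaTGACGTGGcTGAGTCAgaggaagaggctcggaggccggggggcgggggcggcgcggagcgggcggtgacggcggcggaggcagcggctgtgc
In the Tmed5 window the capitals mark a CCAAT box on the opposite strand (ATTGG). In the Tm9sf3 window they mark TGACGTGG, the element bound by XBP1 and ATF6 in the unfolded protein response (UPRE), followed after 1 base by the AP-1 motif TGAGTCA.

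The motifs were searched on both strands of all 32851 promoter windows of the RefSeq table. TGACGTGG was present in 0.676% of them, the AP-1 motif TGANTCA in 7.81% and CCAAT in 37.4%. The cyclic AMP response element TGACGTCA was present in 1.79%, the ER stress element ERSE in 0.119% and the related element ERSE-II in 0.0365%, both of which include a CCAAT box. A window was used for 8 of the 10 genes (all but Tmed2 and Tmed7). Tm9sf3 was the single one of these 8 with TGACGTGG and the single one with TGANTCA, 5 had a CCAAT box (Tmed4, Tmed5, Tmed9, Tmed10 and Tm9sf4), and none had any of the other 3 motifs. A match is a run of letters and was not tested for binding. Both windows were rich in G and C, at 68.3% for Tmed5 and 78.0% for Tm9sf3, while the transcripts they start were not, as given below.

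Tmed2 and Tmed10, the beta and delta members, form the core to which the other subfamilies bind. Tmed2 (chromosome 5, 124540695 to 124550506, plus strand, mm10; 4 exons) had 786.0, 643.4, 554.9 and 619.5 normalised reads in Nupr1-/- libraries 1 to 4, against 1485.9, 864.2, 1508.5 and 1434.5 in wild type libraries 1 to 4. Every Nupr1-/- library lay below every wild type library, and wild type library 2 was the lowest of its group. The means were 651 ± 97.5 in Nupr1-/- and 1323 ± 308 in wild type (SD, n = 4 each), a log2 difference of -1.0 ± 0.21 (SE). The Nupr1-/- mean was 49.2% of the wild type mean. These values rest on 516 to 669 reads per Nupr1-/- library and 877 to 2134 per wild type library. The call was lost when Nupr1-/- library 2 or 3 or wild type library 1, 3 or 4 was left out, with log2 differences of -1.19 to -0.92 over the 8 fits that leave out 1 library, and also, at -0.84, when a trend on transcript GC content and length was removed. Tmed2 shares 604 bases without a mismatch with the pseudogene Gm10698 on chromosome 9 and 600 bases at 96.7% with Gm7318 on chromosome 15, neither of which is in the table, so its reads could have been split among these copies.

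Tmed10 (chromosome 12, 85340614 to 85374847, minus strand), which also modulates gamma-secretase, had 737.9, 1043.6, 864.1 and 679.6 normalised reads in Nupr1-/- libraries 1 to 4, against 803.5, 707.5, 1025.0 and 946.3 in wild type libraries 1 to 4. The groups overlapped over nearly their whole range. Its means were 831 ± 161 in Nupr1-/- and 871 ± 142 in wild type (SD, n = 4 each), with a log2 difference of -0.07 ± 0.20 (SE). Within each library the ratio of Tmed2 to Tmed10 in normalised reads was 0.62 to 1.07 in Nupr1-/-, against 1.22 to 1.85 in wild type. The order of these core partners by reads thus differed between genotypes in 3 of 4 Nupr1-/- libraries, those other than library 1. Tmed10 has a near-identical pseudogene, Tmed10-ps on chromosome 13 (99.4% over 660 bases), and 71 exon bases overlap an antisense gene, which the unstranded libraries cannot separate.

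The alpha members Tmed4 and Tmed9 did not pass the threshold. Tmed4 (chromosome 11, 6270369 to 6274870, minus strand) had 433.1, 481.3, 448.8 and 329.6 normalised reads in Nupr1-/- libraries 1 to 4, against 302.2, 340.9, 371.9 and 201.0 in wild type libraries 1 to 4. It was the one gene of the 10 with a log2 difference above 0, at 0.50 ± 0.26 (SE), although Tmed3 came to 0.03 with edgeR and DESeq2. Nupr1-/- library 4 lay within the wild type range, and the means were 423 ± 65.5 in Nupr1-/- and 304 ± 74.3 in wild type (SD, n = 4 each). Tmed9 (chromosome 13, 55573732 to 55597697, plus strand) was the least read of the 10, with 64.5 to 77.3 normalised reads in Nupr1-/- and 69.8 to 98.2 in wild type. Its log2 difference was -0.22 ± 0.44 (SE).

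The gamma members Tmed3, Tmed5 and Tmed7 are close paralogs that can take the same place in the complex, and their values differed widely. Tmed5 (chromosome 5, 108106366 to 108132620, minus strand; 4 exons) had 141.5, 169.6, 124.6 and 217.6 normalised reads in Nupr1-/- libraries 1 to 4, against 387.1, 559.7, 718.9 and 529.1 in wild type libraries 1 to 4. The highest Nupr1-/- library was well below the lowest wild type library. Its means were 163 ± 40.7 in Nupr1-/- and 549 ± 136 in wild type (SD, n = 4 each), a log2 difference of -1.74 ± 0.28 (SE), or 3.34-fold lower in Nupr1-/-. The reads behind these values numbered 97 to 235 per Nupr1-/- library and 556 to 721 per wild type library. The call held in all 8 fits that leave out 1 library, with log2 differences of -1.90 to -1.60, and was lost, at -0.70, when a trend on transcript GC content and length was removed from each library. Of the Tmed5 exon bases, 395 overlap Mtf2 on the other strand, so reads there cannot be assigned to either gene from unstranded libraries.

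Tmed7 (chromosome 18, 46560235 to 46597535, minus strand), which in human cells carries the receptor TLR4 to the surface, had 189.6, 324.2, 149.3 and 292.6 normalised reads in Nupr1-/- libraries 1 to 4, against 421.3, 303.5, 607.2 and 397.6 in wild type libraries 1 to 4. Nupr1-/- library 2 lay above wild type library 2, and all other Nupr1-/- libraries lay below all wild type libraries. The log2 difference of -0.88 ± 0.31 (SE) was not past the threshold with all 8 libraries. It was past it, at -1.03, in the fit without wild type library 2. Tmed7 shares 838 exon bases with Ticam2 on the same strand. Tmed3 (chromosome 9, 89699206 to 89705068, minus strand) had means of 594 ± 209.9 in Nupr1-/- and 581 ± 98.3 in wild type (SD, n = 4 each) and a log2 difference of -0.01 ± 0.25 (SE). Its spread in Nupr1-/- came from library 1 at 882.3, with the other 3 at 436.4 to 617.6.

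Among the nonaspanins, Tm9sf3 (chromosome 19, 41210844 to 41263997, minus strand; 15 exons) had 331.0, 423.9, 662.6 and 571.3 normalised reads in Nupr1-/- libraries 1 to 4. It had 1539.5, 1203.2, 1617.2 and 1217.6 in wild type libraries 1 to 4. No Nupr1-/- library came near the wild type range. The means were 497 ± 148 in Nupr1-/- and 1394 ± 215 in wild type (SD, n = 4 each), a log2 difference of -1.52 ± 0.23 (SE), or 2.87-fold lower in Nupr1-/-. The reads numbered 227 to 750 per Nupr1-/- library and 1221 to 2211 per wild type library. The call held in all 8 fits that leave out 1 library, with log2 differences of -1.68 to -1.34, and was lost, at -0.95, with the trend on GC content and length removed. No exon of another gene overlaps it.

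Tm9sf2 (chromosome 14, 122107038 to 122159604, plus strand), which takes part in glycosphingolipid synthesis in the Golgi, had 364.8 to 502.7 normalised reads in Nupr1-/- and 317.4 to 504.5 in wild type. The Nupr1-/- range lay within the wild type range, and the log2 difference was -0.05 ± 0.24 (SE). Tm9sf4 (chromosome 2, 153161303 to 153210466, plus strand), known for a role in cell adhesion and phagocytosis, had 126.9, 127.2, 165.2 and 163.9 normalised reads in Nupr1-/- libraries 1 to 4, against 97.5, 237.5, 268.2 and 117.2 in wild type libraries 1 to 4. Wild type libraries 1 and 4 lay below all Nupr1-/- libraries and wild type libraries 2 and 3 above them, and the log2 difference was -0.18 ± 0.38 (SE).

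**Figure D2:**
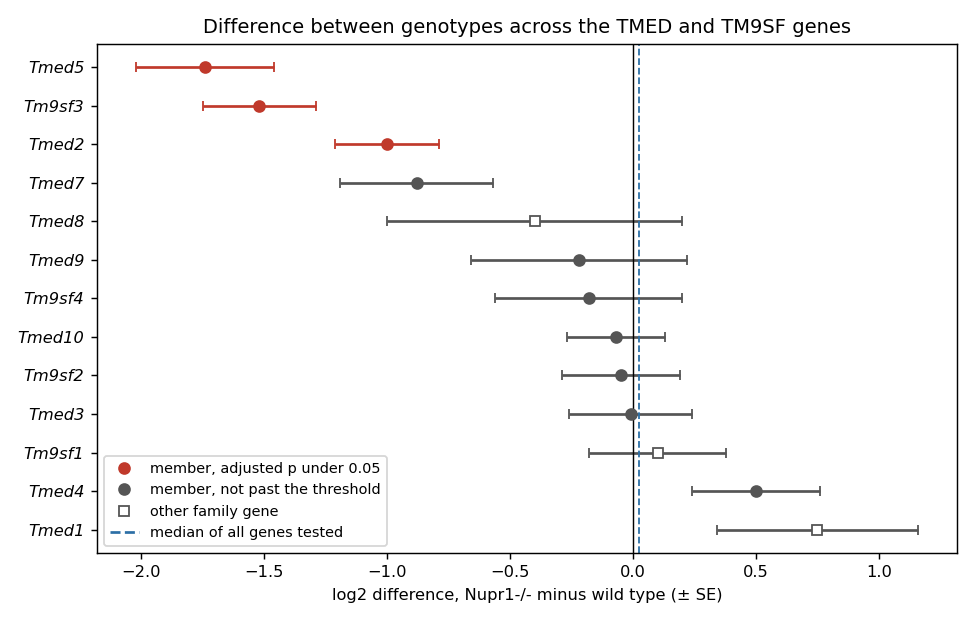
Log2 difference (x axis, Nupr1-/- minus wild type, with SE) of the 10 genes and 3 further family genes; red marks adjusted p under 0.05, open squares the further genes and the dashed line the median of all genes tested. Tmed5 at -1.74 and Tm9sf3 at -1.52 lie farthest from 0.

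The table also held 3 family genes outside the 10, and none of them passed the test. Tmed1, a gamma member that binds the IL-33 receptor chain ST2, had 97.3 to 195.4 normalised reads in Nupr1-/- and 50.8 to 138.3 in wild type (log2 difference 0.75 ± 0.41 SE, limma adjusted p = 0.328), and 207 of its exon bases overlap Dnm2. Tmed8 averaged 66.6 ± 37.9 in Nupr1-/- and 87.6 ± 56.2 in wild type (SD, n = 4 each; log2 difference -0.40 ± 0.60 SE, limma adjusted p = 0.757). Tm9sf1 averaged 233 ± 22.6 in Nupr1-/- and 219 ± 45.7 in wild type (log2 difference 0.10 ± 0.28 SE, limma adjusted p = 0.875), and 888 of its exon bases overlap Gm49747 or Gm49378. Tmed6 and Tmed11 had no entry under these symbols in the table.

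Levels of different genes were compared as normalised reads per 1000 bases of the principal transcript, a scale that removes the effect of length. In Nupr1-/- the order of mean levels was Tmed10 at 561 ± 109, Tmed3 at 441 ± 156, Tmed2 at 314 ± 47.0, Tmed4 at 211 ± 32.7, Tmed7 at 177 ± 61.5, Tm9sf3 at 157 ± 46.7, Tm9sf2 at 134.5 ± 21.2, Tmed9 at 49.9 ± 4.7, Tmed5 at 43.0 ± 10.7 and Tm9sf4 at 37.4 ± 5.6 (SD, n = 4). In wild type it was Tmed2 at 638 ± 148, Tmed10 at 587 ± 95.9, Tm9sf3 at 439.9 ± 67.8, Tmed3 at 432 ± 73.0, Tmed7 at 321 ± 94.3, Tmed4 at 152 ± 37.1, Tmed5 at 144 ± 35.8, Tm9sf2 at 140.5 ± 26.4, Tmed9 at 58.4 ± 8.5 and Tm9sf4 at 46.2 ± 21.9. Tmed2 thus stood at rank 3 in Nupr1-/- and rank 1 in wild type, Tm9sf3 at rank 6 and rank 3, and Tmed5 at rank 9 and rank 7.

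Neighbours in these orders were often not separable. In Nupr1-/- a gene lay above the next lower one in all 4 libraries for Tmed3 over Tmed2, Tmed2 over Tmed4 and Tm9sf2 over Tmed9, and in 2 or 3 libraries for the other neighbours. In wild type this held in all 4 libraries for Tmed10 over Tm9sf3, Tmed7 over Tmed4 and Tm9sf2 over Tmed9. In wild type, Tm9sf3 lay above Tmed3, Tmed4 above Tmed5, and Tmed5 above Tm9sf2 in 2 of 4 libraries each. The level per length also depends on the transcript chosen: Tm9sf3 spans 3170 bases in its principal transcript and 8096 in its longest, and Tmed7 spans 1348 and 7982.

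The share of a family's summed level per length does not depend on the scaling between libraries. Tm9sf3 made up 27.2, 36.0, 41.7 and 42.0% of the summed level of the 4 TM9SF genes in Nupr1-/- libraries 1 to 4, against 66.0, 56.2, 60.4 and 64.1% in wild type libraries 1 to 4. The highest Nupr1-/- share was below the lowest wild type share, for a gene chosen with this contrast known. The summed level of the TM9SF genes was 421 ± 58.7 in Nupr1-/- and 714 ± 104 in wild type (SD, n = 4 each). Tm9sf2 made up 32 ± 3.8% in Nupr1-/- and 19.7 ± 3.1% in wild type, and Tm9sf1 made up 22.4 ± 4.3% in Nupr1-/- and 12.2 ± 1.6% in wild type, although the level of neither differed past the threshold.

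Among the 9 TMED genes, the share of Tmed2 was 16.2 ± 1.1% in Nupr1-/- and 26.1 ± 3.1% in wild type, and that of Tmed5 was 2.2 ± 0.6% in Nupr1-/- and 6.0 ± 1.6% in wild type (SD, n = 4 each). Tmed10 held the largest mean share in Nupr1-/-, at 29.3 ± 6.1%, against 24.3 ± 1.8% in wild type. Tmed3 had 22.7 ± 6.5% in Nupr1-/- and 17.9 ± 2.0% in wild type, and Tmed4 had 11 ± 1.8% in Nupr1-/- and 6.4 ± 2.0% in wild type. Here too, where the shares of Tmed2 and Tmed5 are lower the others together are higher. The summed level of the TMED genes was 1926 ± 173 in Nupr1-/- and 2417 ± 367 in wild type. With coding length in place of transcript length, the mean share of Tm9sf3 was 40.0% in Nupr1-/- and 64.7% in wild type, and with the longest transcript 18.7% in Nupr1-/- and 38.8% in wild type, so the difference between genotypes kept its direction while the share itself moved.

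**Figure D3:**
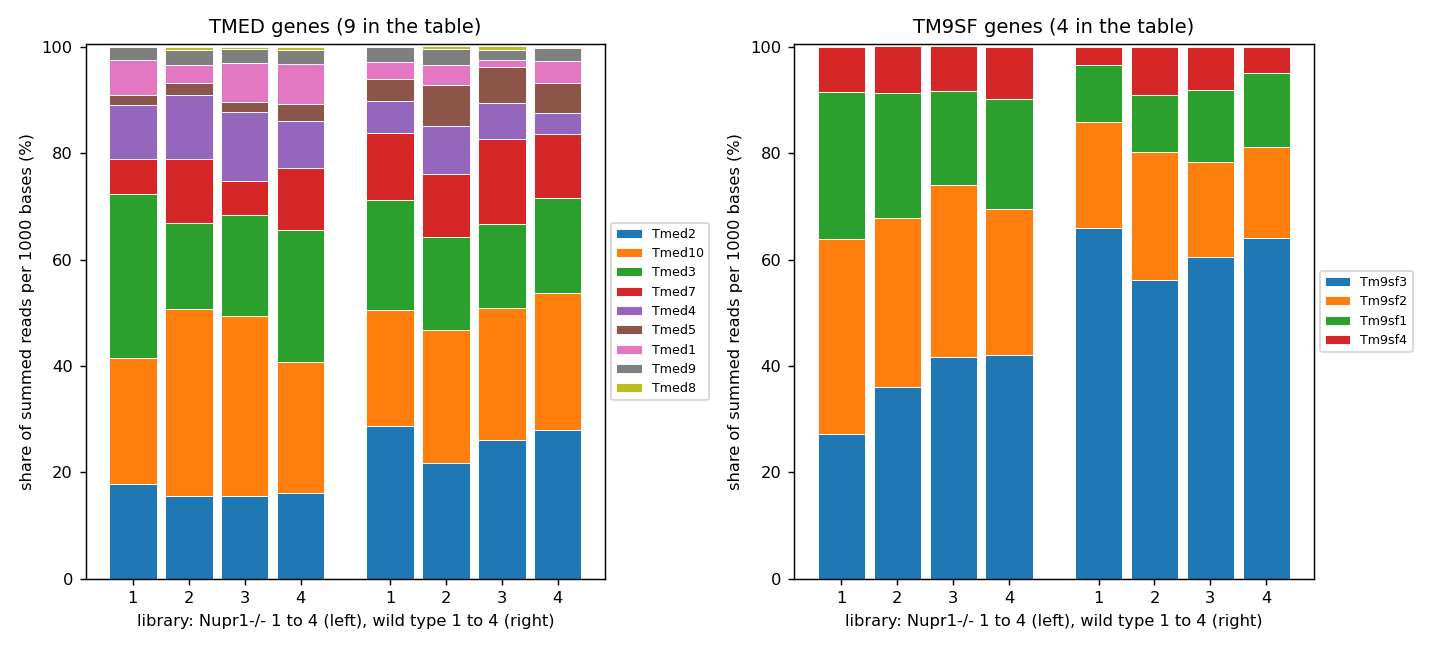
Share of the summed reads per 1000 bases (y axis, %) of each TMED gene (left panel) and each TM9SF gene (right panel) in Nupr1-/- libraries 1 to 4 and wild type libraries 1 to 4. Tm9sf3 takes 27.2 to 42.0% of its family in Nupr1-/- and 56.2 to 66.0% in wild type.

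Ratios within a library set Tmed5 and Tm9sf3 against each paralog. Tm9sf3 over Tm9sf2 in normalised reads was 0.76 to 1.57 in Nupr1-/- and 2.38 to 3.84 in wild type. Its ratio to Tm9sf4 was 2.61 to 4.01 in Nupr1-/- and 5.07 to 15.79 in wild type, and its ratio to Tm9sf1 was 1.24 to 2.99 in Nupr1-/- and 5.65 to 7.70 in wild type. The ranges were separate for each of the 3 paralogs. Tmed5 over Tmed3 was 0.16 to 0.39 in Nupr1-/- and 0.56 to 1.25 in wild type. Tmed5 over Tmed7 was 0.52 to 0.83 in Nupr1-/- and 0.92 to 1.84 in wild type. Its ranges were also separate against Tmed4 (0.28 to 0.66 in Nupr1-/-, 1.28 to 2.63 in wild type), Tmed9 (1.83 to 3.31 in Nupr1-/-, 3.94 to 10.3 in wild type) and Tmed10 (0.14 to 0.32 in Nupr1-/-, 0.48 to 0.79 in wild type). Against Tmed2 they overlapped, at 0.18 to 0.35 in Nupr1-/- and 0.26 to 0.65 in wild type. These ratios show unequal differences between genes and do not show that a paralog was constant. They were not recomputed with the trend on GC content and length removed. In that fit Tmed7 (log2 difference -1.02) was lower in Nupr1-/- by more than Tmed5 (-0.70). With the longest transcript in the trend the values were -0.41 for Tmed7 and -0.86 for Tmed5. Tmed5 and Tm9sf3 were chosen with this contrast known, so separate ranges were likely beforehand. The ratios of each gene also share its values, so they are a description and not repeated evidence.

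The spread between mice of one genotype, as the SD of log2 values over 4 libraries, was 0.13 to 0.72 for the 10 genes. The median over all genes tested was 0.48 in Nupr1-/- and 0.58 in wild type.

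Transcript GC content moved with the difference between genotypes over the whole table. With the genes in 10 equal bins by GC content, the lowest bin (33.0 to 41.9%) had a median log2 difference of -0.67, and 9.64% of its genes were called lower in Nupr1-/-. The highest bin (58.1 to 69.7%) had a median of 0.54, and 0.09% were called lower. Within each library, the Spearman correlation across genes of GC content with the deviation from the gene's mean was 0.154 to 0.308 in Nupr1-/- and -0.312 to -0.142 in wild type, a description across genes that are not independent. Tmed5 (35% GC) and Tm9sf3 (41.0%) lay in the lowest bin, and Tmed2 (46.3%) in the third, where the median log2 difference was -0.23. Tm9sf2, at 43.3% GC in the second bin (median -0.39), had a log2 difference of -0.05.

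With a trend on GC content and transcript length removed from each library, none of the 10 genes passed the threshold, and 26 of all genes tested did. The log2 difference was then -0.70 for Tmed5, -0.95 for Tm9sf3 and -0.84 for Tmed2, all still below 0, while Tmed7 was at -1.02 and Tm9sf2 at 0.34. With the GC content and length of each gene's longest transcript the values were -0.86 for Tmed5, -0.92 for Tm9sf3, -0.87 for Tmed2 and -0.41 for Tmed7, and Tmed10 changed sign to 0.27. Tmed7 has 51.9% GC in its principal and 42.0% in its longest transcript. With wild type library 2 left out as well as the trend removed, Tm9sf3 (-0.95) and Tmed2 (-0.97) passed the threshold and Tmed5 (-0.60) did not. The part of GC content in the difference of any single gene was not tested.

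**Figure D4:**
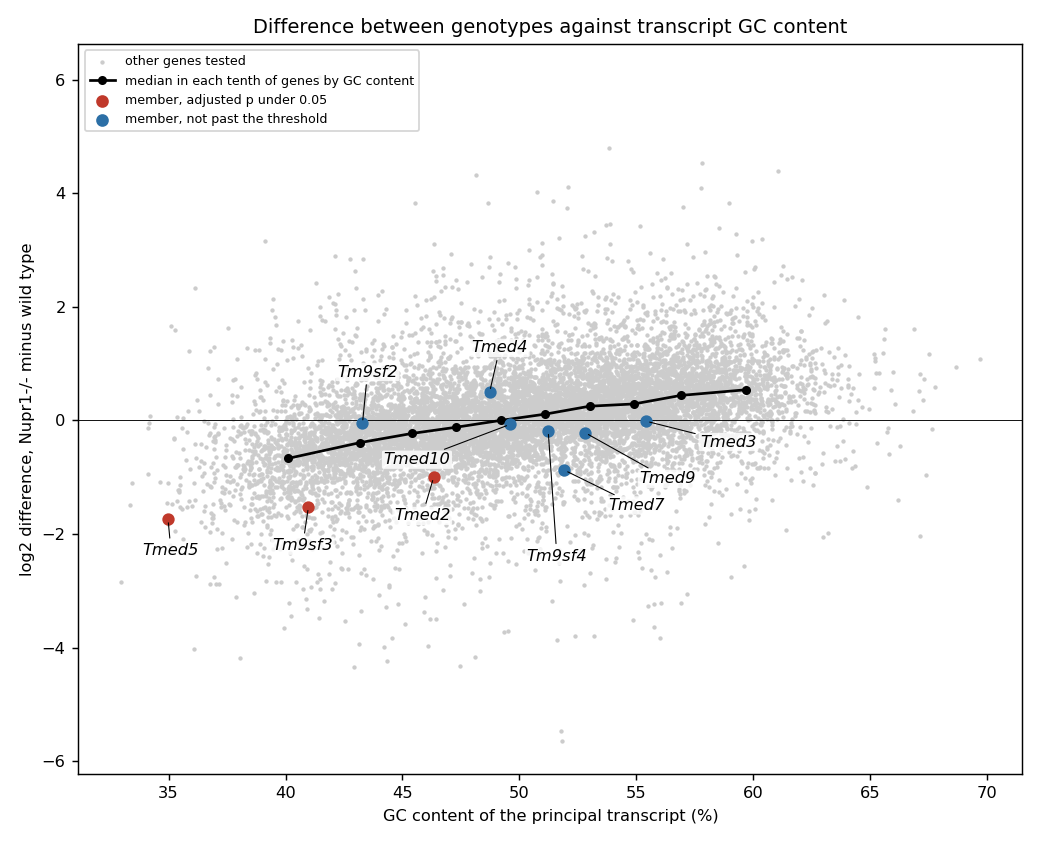
Log2 difference (y axis, Nupr1-/- minus wild type) of each gene tested against the GC content of its principal transcript (x axis, %); the black line joins the medians of 10 equal bins by GC content, red marks genes of the 10 past the threshold and blue the others. Tmed5 and Tm9sf3 lie below -0.67, the median of the bin of lowest GC content. That bin has a median GC content of 40.1%. Tmed5 has a lower GC content than this, so -0.67 is not a value for genes of its own GC content.

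**Figure D5:**
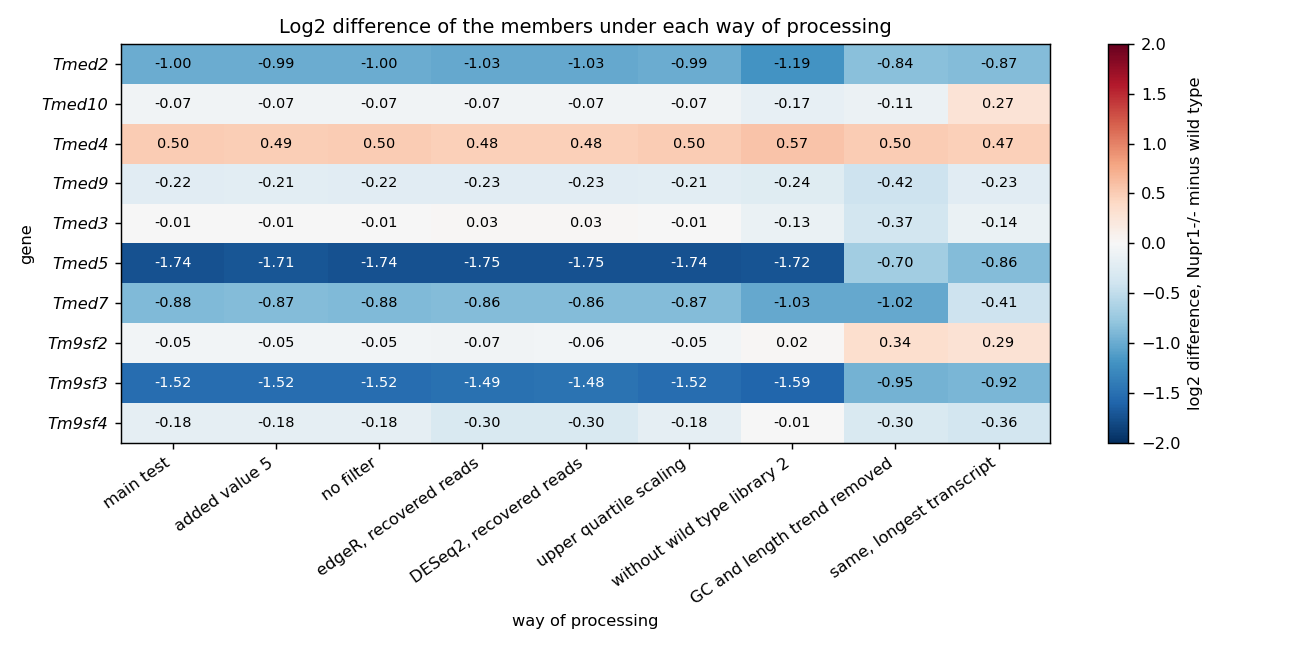
Log2 difference (colour and printed value, Nupr1-/- minus wild type) of the 10 genes (rows) under 9 ways of processing (columns). Tmed5 is at -1.75 to -1.71 in the first 7 columns and at -0.70 and -0.86 with the trend on GC content and length removed.

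The genes with profiles most like Tmed5 and Tm9sf3 were found by the root mean square difference of log2 values over the 8 libraries, each gene centred on its own mean, so that smaller is more alike. For Tmed5, where the median over all genes was 1.12, they were Calcrl at 0.269, Fcho2 at 0.282, Sec23a at 0.286, Mark3 at 0.292 and Golph3 at 0.296. Sec23a encodes a subunit of the COPII inner coat and averaged 37.2 ± 9.9 normalised reads in Nupr1-/- and 109 ± 38.6 in wild type (SD, n = 4 each; log2 difference -1.50, limma adjusted p = 0.114). Golph3, which encodes a Golgi phosphoinositide-binding protein, averaged 166 ± 54.9 in Nupr1-/- and 387 ± 105 in wild type (log2 difference -1.23, limma adjusted p = 0.0352). For Tm9sf3, where the median over all genes was 1.03, the nearest were Itfg1 at 0.234, Fcho2 at 0.253, Rnf138 at 0.26, Tmem64 at 0.263 and Klhl7 at 0.27. Fcho2, an endocytic membrane-bending protein, was near to both (72.2 ± 13.9 in Nupr1-/-, 233 ± 44.6 in wild type; log2 difference -1.68, limma adjusted p = 0.0191). Tmed5 and Tm9sf3 were 0.437 apart, which made Tm9sf3 the gene of rank 60 for Tmed5 and Tmed5 the gene of rank 126 for Tm9sf3. These profiles all rest on the same 8 libraries and genotype difference. A gene picked for likeness to Tmed5 or Tm9sf3 was therefore likely beforehand to be lower in Nupr1-/-. The p-values of Sec23a, Golph3 and Fcho2 are thus a description and not a test. Calcrl (log2 difference -1.34) and Mark3 (-1.40), as near to Tmed5, were lower too.

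The coats and partners among which the TMED proteins travel are described by 3 lists, in which 6.7% (COPII), 5.0% (COPI) and 4.9% (tethers and SNAREs) of the genes tested were past the threshold, beside 3.80% of all genes tested. Of 33 genes of the COPII coat, its regulators and ER exit receptors, 30 were tested, 1 was lower, 1 was higher and 28 did not pass, with a median log2 difference of -0.02 beside 0.03 over all genes. Bcap29, an ER membrane protein of the BAP family, fell to 199.9 ± 53.7 normalised reads in Nupr1-/-, against 443 ± 96.4 in wild type (SD, n = 4 each; log2 difference -1.16 ± 0.28 SE, limma adjusted p = 0.0315). Yif1b, which takes part in ER to Golgi transport, rose to 584 ± 66.1 in Nupr1-/-, against 281 ± 104 in wild type (log2 difference 1.15 ± 0.30 SE, limma adjusted p = 0.0397). Of the 8 fits that leave out 1 library, the call of Bcap29 held in the 2 without Nupr1-/- library 3 or wild type library 2 (limma adjusted p 0.0191 to 0.103 over the 8) and that of Yif1b in the 1 without wild type library 2 (0.0125 to 0.107). With the trend on GC content and length removed neither passed (log2 difference -0.51 for Bcap29 and 0.66 for Yif1b), and Yif1b did not pass with edgeR (1.05).

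Of the 21 genes of the COPI coat, ARF cycle and KDEL receptors, 20 were tested, none was lower, 1 was higher and 19 did not pass. Their median log2 difference was 0.34 and their median GC content 52.4%. The bin of all genes at 52.1 to 53.9% GC had a median log2 difference of 0.25. The part of GC content in the median of the list was not tested. Cope, a COPI coat subunit, rose to 1114 ± 216 normalised reads in Nupr1-/-, against 598 ± 113 in wild type (log2 difference 0.90 ± 0.22 SE, limma adjusted p = 0.0313). Its call held in the 2 fits without Nupr1-/- library 4 or wild type library 2 (limma adjusted p 0.0116 to 0.106 over the 8) and was lost with the GC and length trend removed (0.49). Arfgap3, a GTPase-activating protein of ARF1, averaged 95.3 in Nupr1-/- and 35.8 in wild type (log2 difference 1.89 ± 0.72 SE, limma adjusted p = 0.154), and its log2 difference was 1.19 without wild type library 2, where it had 4.9 normalised reads, and 1.39 with edgeR.

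Of 41 Golgi tethers and ER-Golgi SNAREs, all 41 were tested, 1 was lower, 1 was higher and 39 did not pass, with a median log2 difference of -0.02. Bet1, an ER-Golgi SNARE, fell to 86.0 to 116.7 normalised reads in Nupr1-/-, against 208.4 to 307.1 in wild type (log2 difference -1.36 ± 0.32 SE, limma adjusted p = 0.028). Cog4, a subunit of the conserved oligomeric Golgi tether, rose to 229.6 ± 68.6 in Nupr1-/-, against 88.8 ± 25.4 in wild type (log2 difference 1.35 ± 0.37 SE, limma adjusted p = 0.0494). The call of Bet1 held in the 2 fits without Nupr1-/- library 4 or wild type library 2 (limma adjusted p 0.0231 to 0.0836 over the 8) and that of Cog4 in the 1 without wild type library 2 (0.0174 to 0.155), and neither held with the GC and length trend removed (-0.61 for Bet1 and 1.21 for Cog4).

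GPI-anchored proteins are the best known TMED cargo. Among all 10989 genes tested, 2160 had an unadjusted p under 0.05 with limma, the background for the unadjusted counts below. Of 28 genes for synthesis, attachment and remodelling of the GPI anchor, 25 were tested and none passed (limma; 3 at an unadjusted p under 0.05, and none past the adjusted threshold with edgeR or DESeq2, each with 2 at an unadjusted p under 0.05). Their median log2 difference was -0.21. The smallest p belonged to Pigh, at 90.6 ± 20.6 normalised reads in Nupr1-/- and 177 ± 23.9 in wild type (limma adjusted p = 0.143), and Mppe1, which remodels the anchor before ER exit, at 158 ± 48.1 in Nupr1-/- and 70.1 ± 42.7 in wild type (limma adjusted p = 0.153). Of 14 GPI-anchored surface proteins of blood cells, 9 were tested with limma and none passed (4 at an unadjusted p under 0.05). None passed with edgeR. DESeq2 tested 11 of them and called 2, Cd55 and Prnp, beside 782 that it called among all genes. With limma, 8 of the 9 had log2 differences below 0. Their median was -0.60, beside 0.03 over all genes tested, and the share of all genes below 0 is not given here. Cd55, a complement regulator, averaged 173 ± 51.6 in Nupr1-/- and 453 ± 234 in wild type (log2 difference -1.24, limma adjusted p = 0.0833; past the threshold, at -1.66, without wild type library 2), and Prnp, the prion protein, 70.3 ± 34.1 in Nupr1-/- and 181 ± 64.0 in wild type (limma adjusted p = 0.0842).

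Markers of most other lineages were in the table in part. Of 12 megakaryocyte and platelet markers, a lineage with a large secretory system, 10 were in the table and 4 were called higher in Nupr1-/-, beside 1.68% of all genes tested, with a summed level of 4826 to 5819 normalised reads in Nupr1-/- and 4109 to 5052 in wild type. Of 12 erythroid markers 6 were in the table and 1 was called higher (4177 to 6112 in Nupr1-/-, 2275 to 4671 in wild type). Of 8 endothelial markers 6 were in the table and 1 was called higher (1349 to 1631 in Nupr1-/-, 755 to 1494 in wild type). Only 1 of 12 neutrophil markers was in the table (847 to 1445 in Nupr1-/-, 983 to 2908 in wild type), and 3 of 10 each for monocytes (1432 to 2616 in Nupr1-/-, 1632 to 3166 in wild type) and B cells (213 to 379.9 in Nupr1-/-, 290.4 to 7634 in wild type). For T and NK cells 4 of 10 were in the table (204 to 522 in Nupr1-/-, 202 to 642 in wild type), for dendritic cells 4 of 8 (220.4 to 867 in Nupr1-/-, 213 to 2082 in wild type), for bone and stromal cells 3 of 8 (58.3 to 117 in Nupr1-/-, 26.5 to 178 in wild type), and for mast cells, basophils and eosinophils none of 9. Gp1bb, Hba-a1, Hbb-bs, Klf1, Vpreb1, Ighm, Cd4, Cldn5, Col1a2 and Sparc were at 0 in at least 1 library, and the defining genes Elane, Mpo, Cd3e and Cpa3 had no entry under these symbols in the table. The part of these cells in the differences of the TMED and TM9SF genes was not tested.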

How the data were processed

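Sorted HSCs of 4 Nupr1-/- and 4 wild type mice gave 1 Nextera XT library of polyadenylated RNA each, a kit that leaves reads unstranded, per the labels' protocols. The submitters' processing notes list the build mm10, HISAT2, Subread with featureCounts, bcl2fastq and DESeq2, with no settings. The deposited table holds 1 signal per gene and library, which by its values is gene reads divided by 1 size factor per library: dividing by a single step per library gave whole reads for 100% of values (tolerance 0.001), and DESeq2 size factors of those reads differed from the reciprocals of the steps, up to a common factor, by at most 3.08e-10 as a ratio. Where the step was near 1 (wild type library 3) recovery rests on low values. The 1 entry without a name was left out.

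Values were compared on the log2(value + 1) scale with limma 3.58.1 (lmFit, then eBayes with its robust and trend options; R 4.3.3). Tests were two-sided, and a gene was called where its p, adjusted by Benjamini-Hochberg over 10989 genes, was under 0.05. The filter left out 865. Lengths, GC content (10890 genes tested) and positions are from GENCODE M21, matched by symbol for 11717 of 11853 symbols, 454 of them through an older symbol; near-identical copies are at least 95% alike over at least 200 bases. Alternatives were an added value of 5, no filter, edgeR 4.0.16 and DESeq2 1.42.0 on the recovered reads, upper quartile scaling, removal of a GC and length trend (splines with 5 degrees of freedom), the replicate number as a block, and leaving out each library. Those with the longest transcript, and with wild type library 2 left out while the trend was removed, were chosen after seeing the data.

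The 10 genes, the gene lists and the tests were chosen with earlier results of these data known. Named were the 10 genes, their other family genes, Nupr1, from each list the called genes (at most 6, or, with fewer than 2 called, the 2 of smallest p), and the 5 genes most like Tmed5 and Tm9sf3. Xist, Kdm5d, Mllt3, Mecom and Gata2 were named after their values were seen.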

Additional observations from a re-analysis of the deposited data

Results flagged for a closer look

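Of the 26 groups of 4 libraries looked at (the 10 genes and 3 further family genes in each genotype), 2 held a library far from the others, and chance alone flags about 1 in 20 groups. Tmed2 had 864.2 normalised reads in wild type library 2, with the other wild type libraries at 1434.5 to 1508.5, a gap of 0.885 of the group's range. Tm9sf1 had 266.9 normalised reads in Nupr1-/- library 1, with the other Nupr1-/- libraries at 219.5 to 224.1, a gap of 0.902 of the range.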

How the results depend on the processing

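The number of genes past the threshold among all genes tested was 418, and 3 among the 10 TMED and TM9SF genes. An added value of 5 (487 genes), no filter (351), edgeR (341) and upper quartile scaling (421) stayed within 1.5 times of the first number, DESeq2 gave 782, and each of these gave 3 of the 10. With the GC and length trend removed 26 genes passed and 0 of the 10 (limma; 4 of the 10 at an unadjusted p under 0.05; edgeR and DESeq2, without that trend removed, 3). In the main limma test 2160 of all 10989 genes had an unadjusted p under 0.05. That number is not given with the trend removed, so the unadjusted counts of the 10 have no like background. The 10 were also chosen with this contrast known, and nothing is read from their unadjusted counts here or below. With the longest transcript in that trend 28 passed and 0 of the 10 (3 unadjusted), and with the trend removed and wild type library 2 left out 224 passed and 2 of the 10. Leaving out 1 library gave 49 to 881 genes and 2 to 4 of the 10. These were 61, 49, 151 and 237 genes without Nupr1-/- libraries 1 to 4 and 110, 881, 114 and 155 without wild type libraries 1 to 4. The cause of these changes was not tested. Tmed2, Tmed5, Tm9sf3, Bcap29, Yif1b, Cope, Bet1 and Cog4 kept the sign of their log2 differences under every alternative run. The genes most like Tmed5 and Tm9sf3 were not recomputed under the alternatives.

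The replicate numbers did not pair the libraries: same-numbered libraries had correlations of deviations from the group means of -0.0145, -0.0566, 0.0148 and -0.0155, and 0 of 4 correlated best with their own number. With the replicate number as a block 277 genes passed and 3 of the 10, and with the block and the GC and length trend removed together 25 passed and 0 of the 10 (4 unadjusted). Bcap29, Bet1 and Cog4 lost their calls under the block, Cog4 lost its call without the filter, and Yif1b lost its call with edgeR (1.05). The levels per 1000 bases moved by more than 1 SD in 28 values and by less in 12 with coding length or the longest transcript in place of the principal transcript. Few reads limit genes such as Tmed8 and Tmed9, which average under 100 normalised reads in each genotype.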
